A study of Homo sapiens with 8 samples.

Results

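The genes described here are 9 genes of the actin cytoskeleton whose transcripts are alternatively spliced: the tropomyosins TPM1, TPM2, TPM3 and TPM4, the actinins ACTN1 and ACTN4, the myosin light chain MYL6, the filamin FLNA and vinculin (VCL). They were chosen by name, and their transcripts were found by Ensembl identifier in GENCODE version 44. The tables list 218 transcripts of the 9 genes, 72 of them with a count in some library, and the 9 genes stand among 16474 genes with a count. MOLM-13, a human acute myeloid leukemia cell line, carried a lentiviral construct that expresses an shRNA together with the marker ΔLNGFR once doxycycline (dox) is given, and mCherry at all times. In 4 libraries the shRNA was shPTBP1 (genotype PTBP1 KD) and in 4 it was the scrambled shSCR, which the labels call shControl. All 8 cultures received dox for 9 days. Each group rests on 1 shRNA, so an effect of that shRNA other than the loss of PTBP1 cannot be told apart from PTBP1 KD. The cDNA was read on a nanopore instrument, and the authors deposited read counts per annotated transcript.

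Tropomyosins are coiled-coil dimers that lie end to end along actin filaments and decide which myosins and other proteins may bind there. Actinins cross-link actin filaments, filamins join them into networks, vinculin ties them to adhesion sites, and MYL6 is the essential light chain of smooth muscle and non-muscle myosin. Most of these genes make a muscle form and a non-muscle form by exchanging or adding an exon. PTBP1 binds pyrimidine-rich RNA and represses many exons. Some alternative exons of the tropomyosins and of ACTN1 are long-studied examples of exons whose use it holds down.

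The libraries held 1528449 to 1613342 counts, with 12322 to 12589 genes detected in each. PTBP1 was at 6.25, 9.79, 8.45 and 14.5 normalized CPM (counts per 1000000 after edgeR's TMM scaling) in shPTBP1 replicates 1 to 4 and at 39.4, 56.6, 42.2 and 49.4 in the shSCR replicates, so the labels and the targeted gene fit each other in all 8. PTBP2, the neuronal relative that PTBP1 represses, was at 117 to 130 normalized CPM after shPTBP1 and at 0.607 to 2.53 after shSCR. Of 12 myeloid markers 8 passed the filter on low counts, and the summed level of the 12 was 712 to 823 normalized CPM after shPTBP1 and 651 to 698 after shSCR. Among them CSF1R was lower by the edgeR test (log2 fold change -0.97, adjusted p = 0.0376), a call that was kept in 4 of 14 alternatives. The 8 smooth muscle markers summed to 4.37 to 7.83 normalized CPM after shPTBP1 and 4.86 to 17.6 after shSCR, with MYH11, CNN1 and ACTG2 at 0 in all libraries. The 6 fibroblast markers summed to 18.7 to 22.8 after shPTBP1 and 13.3 to 21.7 after shSCR, and the 5 epithelial markers to 1.25 to 5.69 and 3.77 to 8.50. The markers went both ways: LYZ, the lysozyme gene, which made up most of the difference in the sum, was at 341 ± 59.9 after shPTBP1 and 270 ± 25.0 after shSCR with overlap, CD33 was at 85.3 ± 10.6 and 71.3 ± 3.87 without overlap, and CSF3R at 76.5 ± 12.4 and 87.2 ± 3.77 with overlap. The part of these markers in the results that follow was not tested. Not every myeloid gene had counts: SPI1, a transcription factor that defines the lineage, had 1 count in the 8 libraries together, so a count near 0 in these tables was not read as absence of the RNA.

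The clearest change among the 9 genes was in TPM3, in which the isoform TPM3-206 rose from 12.1% ± 1.37 to 22.3% ± 1.80 of the counts of the gene (SD, n = 4). TPM3-206 and the main isoform TPM3-212 have the same coding length of 744 bases and share 7 coding pieces. The 1 coding piece in which they differ is a pair of mutually exclusive exons of 76 bp, of which transcripts use either the upstream one (exon 6a, in TPM3-212) or the downstream one (exon 6b, in TPM3-206). The exchange replaces part of the coiled coil and keeps the reading frame. TPM3 lies on the minus strand of chr1:154155308-154194648 (GRCh38). Both exons are shown 5′ to 3′ on the transcribed strand, from the hg38 genome, with capitals where the pair differ.
TPM3 exon 6a, chr1:154172029-154172104: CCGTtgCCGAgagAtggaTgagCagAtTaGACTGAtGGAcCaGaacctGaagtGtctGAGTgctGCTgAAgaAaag
TPM3 exon 6b, chr1:154171413-154171488: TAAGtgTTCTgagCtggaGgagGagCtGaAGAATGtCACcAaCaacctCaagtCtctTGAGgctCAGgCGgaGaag
The 2 exons differed at 36 of 76 positions, an identity of 52.6%. TPM1 and TPM2 hold the same pair, and exon 6b of TPM3 was closer to exon 6b of these genes than to its own neighbour, with an identity of 76.3% with TPM1 and 78.9% with TPM2. In the next sequences capitals mark the positions that differ from exon 6a of the same gene.
TPM1 exon 6b, chr15:63061713-63061788, plus strand: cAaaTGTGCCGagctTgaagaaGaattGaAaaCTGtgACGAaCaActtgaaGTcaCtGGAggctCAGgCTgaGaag
TPM2 exon 6b, chr9:35684732-35684807, minus strand: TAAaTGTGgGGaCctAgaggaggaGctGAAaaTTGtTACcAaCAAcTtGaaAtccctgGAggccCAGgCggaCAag

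**Figure D1:**
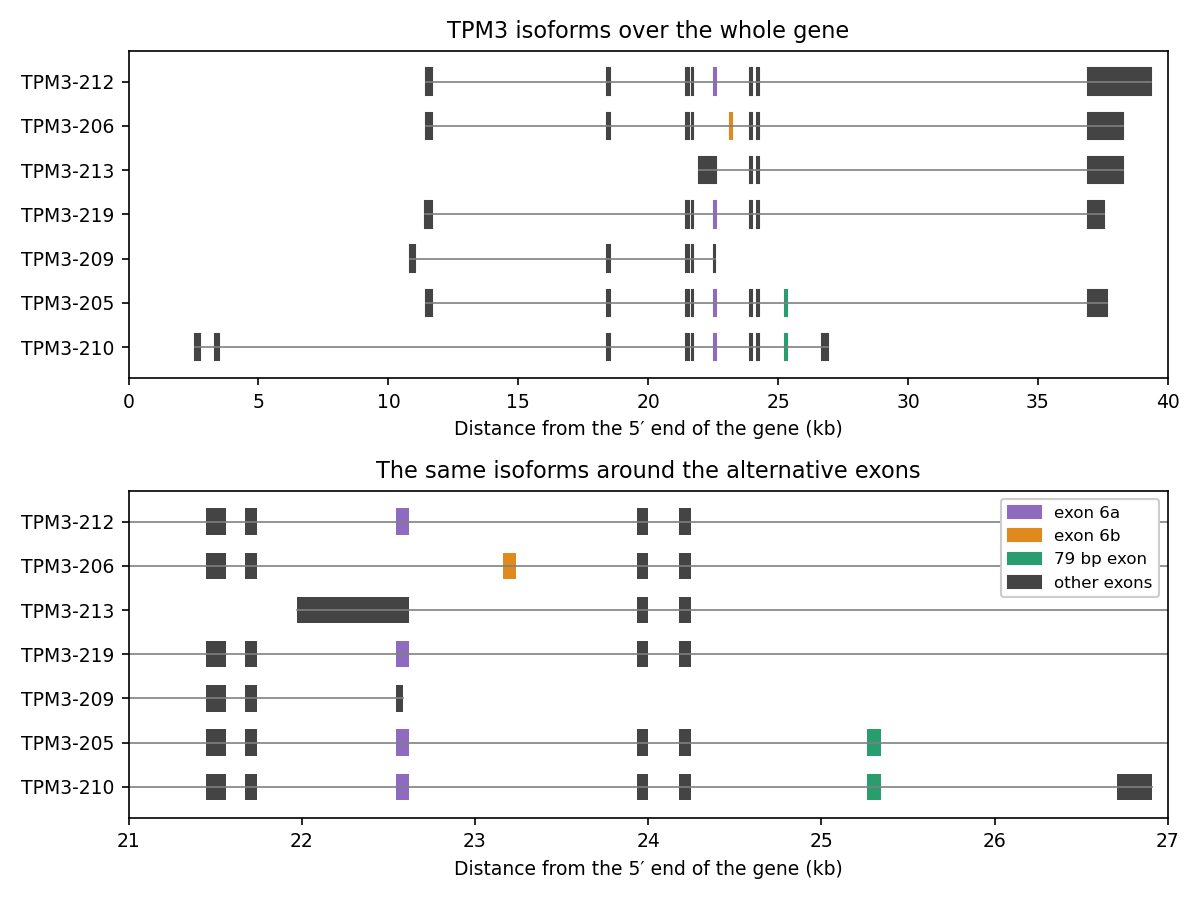
Exons of 7 TPM3 isoforms (boxes) and their introns (lines) against the distance from the 5′ end of the gene in kb, over the whole gene (top) and around the alternative exons (bottom). Of these 7, TPM3-206 carries exon 6b, and TPM3-205 and TPM3-210 carry the exon of 79 bp. The first exon of TPM3-213 and the last exon of TPM3-209 overlap exon 6a without its exact borders and are drawn as other exons.

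TPM3-206 received 85, 65, 65 and 60 counts in shPTBP1 replicates 1 to 4, out of 340, 306, 298 and 282 counts of the gene. In shSCR replicates 1 to 4 it received 40, 31, 30 and 32 counts, out of 284, 285, 255 and 271. Its shares were thus 25%, 21.2%, 21.8% and 21.3% after shPTBP1 and 14.1%, 10.9%, 11.8% and 11.8% after shSCR. The lowest shPTBP1 library lay above the highest shSCR library, and replicate 1 was the highest of both groups. The share rose by 10.2 percentage points (SE 1.13), with an adjusted p of 0.000739 by edgeR's diffSpliceDGE over 5464 isoforms of 2163 genes, and the exact permutation test over the 8 libraries gave p = 0.0286, the smallest that 4 against 4 can give. To be called, an isoform needed an adjusted p below 0.05 together with a shift of 10 points or more, and the shift of TPM3-206 stood close to that limit: without shPTBP1 replicate 1 it was 9.31 points (adjusted p = 0.0187, diffSpliceDGE) and without shSCR replicate 2 it was 9.78 points (adjusted p = 0.0052), both under the limit. The rule called 1.12% of all isoforms tested, and 0.604% with a higher share after shPTBP1. Of the 15 isoforms of TPM3, ACTN1, MYL6 and VCL that could be tested it called 1, TPM3-206, and the other 14 had adjusted p values of 0.136 or more.

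Counted as an exon, 6b was in 85, 66, 65 and 60 counts after shPTBP1 and in 41, 31, 30 and 32 after shSCR. As a share of the transcripts that either carry it or skip over it, this was 23.2% ± 1.91 after shPTBP1 and 13.0% ± 1.66 after shSCR (SD, n = 4). The shares of exon 6a, whose alternative is exon 6b, were 75.1% ± 1.85 and 85.6% ± 2.07. For each of these exons the groups did not overlap. The odds of exon 6b were 1.01 higher on the log2 scale (SE 0.21), with an adjusted p of 0.0909 by edgeR over 14654 splice events of all genes, and 0.117 for exon 6a. The event test thus did not call the exon that the isoform test called in TPM3-206. The adjusted p for exon 6b ran from 0.0678 to 0.255 over the alternatives tried. By edgeR 0 of the 33 splice events of the 9 genes that could be tested passed the same pair of limits, where 0.191% of all events and 0.428% of the 5368 internal exons were. At an unadjusted p under 0.05 edgeR gave 12 of the 33, against 8.25% of all events. These 12 are not separate results, since exons 6a and 6b are alternatives to each other and other events also share transcripts. Events of TPM3-210 and TPM4-226 and an exon of 79 bp of TPM3, all described below, passed the filter only through their counts after shPTBP1. The count of 12 is thus a description.

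TPM3-212, with exon 6a, took 53.5%, 53.9%, 52.7% and 55.3% of the counts of TPM3 after shPTBP1 and 53.5%, 64.6%, 60.8% and 63.8% after shSCR. Replicate 1 of shSCR lay among the shPTBP1 libraries, so the groups overlapped, and the change of -6.81 points (SE 2.58) was not called. TPM3-212 had nearly equal counts, 660 after shPTBP1 and 664 after shSCR, while TPM3-206 had 275 and 133. TPM3-219, which the annotation marks as a target of nonsense-mediated decay, had 5.14% ± 0.46 and 6.73% ± 0.96 of the counts without overlap. TPM3-213, which keeps an intron, had 6.64% ± 1.22 and 9.05% ± 1.35 with overlap. TPM3-209, a short transcript that begins at a start of its own and ends within exon 6a, had 2.40% ± 0.96 after shPTBP1 and 5.58% ± 1.62 after shSCR, without overlap (adjusted p = 0.136, diffSpliceDGE). Transcripts annotated as protein coding made up 84.8% ± 2.07 of TPM3 counts after shPTBP1 and 78.1% ± 2.91 after shSCR. These groups did not overlap either, and the exact permutation test gave p = 0.0286, as it does for any 4 against 4 without overlap. TPM3-206 is itself protein coding, so this sum holds its rise a second time. For 4 of the 15 tested isoforms the shares did not overlap between the groups (TPM3-206, TPM3-209, TPM3-219 and MYL6-211), against 10.7% of all tested isoforms. Transcripts of TPM3 are near copies of the pseudogene TPM3P9, which received 0 to 9 counts per library.

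**Figure D2:**
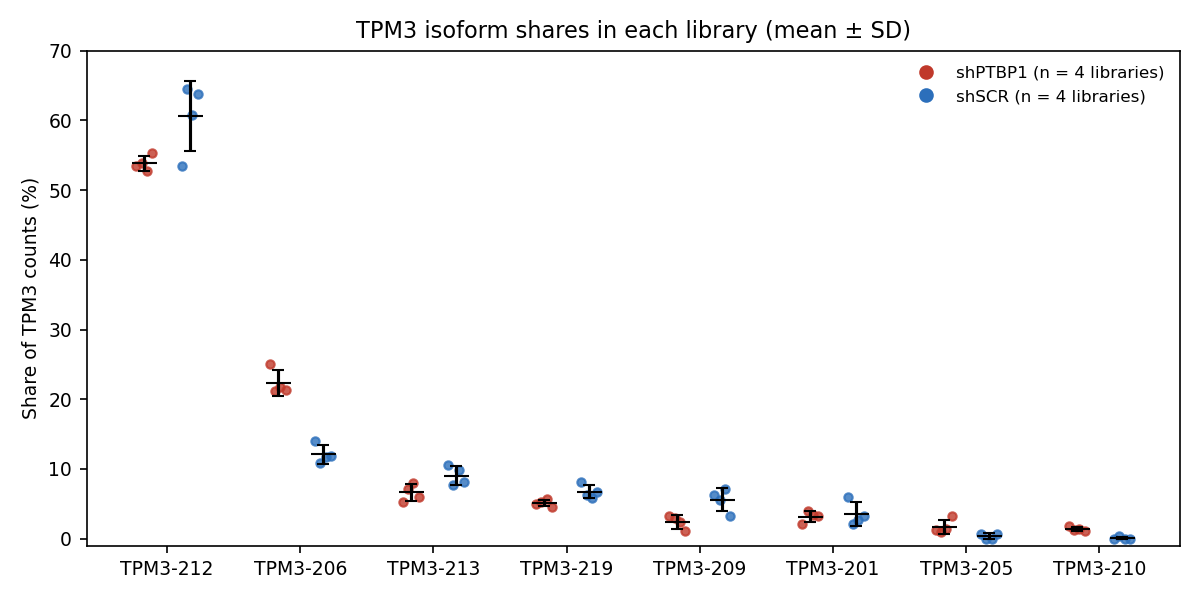
Share of the counts of TPM3 in percent for 8 isoforms, with a point for each library (red shPTBP1, blue shSCR) and the mean ± SD in black. For TPM3-206 all 4 shPTBP1 libraries (21.2% to 25%) lie above all 4 shSCR libraries (10.9% to 14.1%), while for TPM3-212 the groups overlap.

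A second coding exon of TPM3, 79 bp long, was used in few transcripts and mostly after shPTBP1. It lies before the last exon and belongs to TPM3-205 and TPM3-210. In TPM3-205 it takes the place of the last 80 coding bases of TPM3-212, so that it exchanges the end of the protein, the stretch with which tropomyosin dimers meet along the filament. It is shown because it had the largest ratio between the groups among the exons of TPM3 that could be tested. It reached the filter on both forms only through its counts after shPTBP1, so its ratio is a description.
TPM3 exon of 79 bp, chr1:154169305-154169383, minus strand: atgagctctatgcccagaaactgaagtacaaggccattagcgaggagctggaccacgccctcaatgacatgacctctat
It was found in 10, 7, 8 and 12 counts in shPTBP1 replicates 1 to 4 and in 2, 1, 0 and 2 counts in the shSCR replicates. Every shPTBP1 library was above every shSCR library. The share was 3.11% ± 0.84 against 0.472% ± 0.36 (SD, n = 4), and the sums of 37 and 5 counts gave a ratio of 7.30 per library total (exact 95% interval 2.86 to 23.8, counting error only). The adjusted p was 0.0719 by edgeR over all events and ran from 0.0475 to 0.228 over the alternatives. The change of 2.64 points was below the limit of 10 points in each of them. TPM3-210, which joins this exon to an upstream start and an end of its own, had 17 counts after shPTBP1 and 1 after shSCR. TPM3-205 had 20 and 4. Both isoforms were named after their values were seen and were not tested as isoforms, so these counts only describe them.

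PTBP1 binding sites hold short pyrimidine motifs such as TCTT and TCTCT, and the intron just upstream of a repressed exon is a common place for them. The 100 bases of intron before exon 6b, before exon 6a and before the exon of 79 bp are shown on the transcribed strand with matches to TCTT or TCTCT in capitals. The motifs can overlap each other, and only the transcribed strand was searched.
TPM3 upstream of exon 6b, chr1:154171489-154171588: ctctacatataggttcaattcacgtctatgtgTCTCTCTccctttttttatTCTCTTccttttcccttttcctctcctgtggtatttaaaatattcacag
TPM3 upstream of exon 6a, chr1:154172105-154172204: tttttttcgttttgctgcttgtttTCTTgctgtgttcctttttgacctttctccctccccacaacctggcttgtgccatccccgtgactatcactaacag
TPM3 upstream of the exon of 79 bp, chr1:154169384-154169483: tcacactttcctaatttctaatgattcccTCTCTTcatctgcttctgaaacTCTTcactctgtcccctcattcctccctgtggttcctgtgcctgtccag
The window before exon 6b held 3 matches to TCTCT, and 2.11% of the same windows before all 5368 tested internal exons held as many. Those before exon 6a and the exon of 79 bp held 0 and 1, and 24.05% of all windows held at least 1. For TCTT the 3 windows held 1, 1 and 2 matches, and 64.0% of all windows held at least 1. Pyrimidines made up 74% of the window before exon 6b, 74% before exon 6a and 75% before the exon of 79 bp, against a median of 56% over all windows, so the pyrimidine share did not tell exon 6b from exon 6a. The window before exon 6b of TPM1 held 1 match to TCTCT and 0 to TCTT, with 77% pyrimidines. Before exon 6b of TPM2 there were 2 and 1, with 77%, and 6.54% of all windows held 2 or more matches to TCTCT. Before the exon of 66 bp of ACTN1, described below, there were 0 and 3, with 74%. For TCTT, 11.3% of all windows held 3 or more matches. Pyrimidine shares of 77% or more were found in 1.10% of all windows, and shares of 74% or more in 2.20%. A match describes the letters of the window and is not a binding site.

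TPM1 and TPM2 carry the same pair of exons, but few counts fell on them. TPM1 had 3, 7, 6 and 0 counts in shPTBP1 replicates 1 to 4 and 3, 2, 5 and 3 in the shSCR replicates. Exon 6b of TPM1 was in 1, 4, 3 and 0 of these after shPTBP1 and in 0 in each shSCR library. The 3 shPTBP1 libraries that had a count of TPM1 thus all showed exon 6b, and none of the shSCR libraries did. Summed over libraries this was 8 of 15 counts after shPTBP1, or 53.3% (exact 95% interval 26.6% to 78.7%), and 0 of 13 after shSCR, where 3 counts of 13 would be a share of 23.1% and the exact 95% interval reaches 24.7%. Exon 6a was in 8 of 15 and in 13 of 13, and the transcript TPM1-210 carries both exons. TPM2 had 5, 3, 2 and 3 counts after shPTBP1 and 1, 0, 2 and 2 after shSCR. Its exon 6b was in 7 of 11 counts after shPTBP1 and in 2 of 5 after shSCR, with exact 95% intervals of 30.8% to 89.1% and 5.27% to 85.3%, and a difference was not detectable at this depth. Neither gene passed the filters on low counts. Without the filter edgeR gave a log2 fold change of 0.32 (SE 0.68, adjusted p = 0.864) for TPM1 as a gene and 1.31 (SE 0.81, adjusted p = 0.568) for TPM2, and their exons were not tested.

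TPM4, the tropomyosin of non-muscle cells and platelets, is made almost only as TPM4-218, which took 96.8% of its counts after shPTBP1 and 98.7% after shSCR. TPM4-226, a short transcript from the 3′ part of the gene that keeps an intron, had 2, 3, 2 and 4 counts in shPTBP1 replicates 1 to 4 and 0 in each shSCR library. Every shPTBP1 library held it and no shSCR library did. It was at least 3.62-fold higher after shPTBP1, computed against 3 counts over the shSCR group. As a separate end or start of TPM4 its adjusted p was 0.0726 by edgeR. TPM4-226 passed the event filter through the shPTBP1 libraries alone and was named after its values were seen, so these values only describe it. Transcripts of TPM4 that keep an intron together made up 3.05% ± 1.23 of its counts after shPTBP1 and 1.08% ± 0.51 after shSCR. The groups of these shares did not overlap, but TPM4-226 is part of the sum. It gave 11 of the 26 summed counts after shPTBP1 and 0 of the 11 after shSCR. How often such sums lack overlap over all genes was not computed. In all, 12 of the 33 splice events had groups that did not overlap (6 in TPM3, 4 in TPM4 and 2 in MYL6), against 6.26% of all events. Several of these rest on the same transcripts, such as the start and the end of TPM3-209 and those of TPM4-226. Those of TPM4-226, the end of TPM3-210 and the exon of 79 bp of TPM3 passed the filter only through their counts after shPTBP1, so this count is a description.

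ACTN1 is the actinin of adhesions and stress fibers, and part of an EF hand is encoded by a pair of exons. The exon of 81 bp is the non-muscle form and the one of 66 bp the smooth muscle form. ACTN1 lies on the minus strand of chr14:68874128-68979440. The smooth muscle exon is shown because it is the known target of PTBP1 in this gene.
ACTN1 exon of 66 bp, chr14:68878458-68878523: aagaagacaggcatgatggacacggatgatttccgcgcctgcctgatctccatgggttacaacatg
It was found in 1, 0, 2 and 4 counts after shPTBP1 and in 2, 8, 2 and 6 after shSCR. The groups overlapped, and both were low. Its share was 1.32% ± 1.27 after shPTBP1 and 2.85% ± 1.94 after shSCR (SD, n = 4), a difference of -1.53 points with an SE of 1.16 and an adjusted p of 0.797 by edgeR. The difference was -0.706 points without shSCR replicate 2 and was as far as -2.09 points without shPTBP1 replicate 4. Summed over libraries it was in 7 of 499 counts and in 18 of 630, so the upper end of the exact 95% interval after shPTBP1 was 2.87%. Most of these counts were of ACTN1-203, which carries both exons of the pair and had 7 counts after shPTBP1 and 12 after shSCR. ACTN1-204, which has the exon of 66 bp without that of 81 bp, had 0 and 5. The share of the exon is thus not the share of the smooth muscle form alone. The non-muscle exon of 81 bp was in 499 of 499 and in 625 of 630 counts. The main isoform ACTN1-201 took 60.4% ± 7.11 and 59.3% ± 2.93, and ACTN1-216, a transcript that begins within the gene and keeps an intron, took 35.7% ± 7.19 and 35.3% ± 3.79. ACTN4, the second non-muscle actinin, has the same pair of exons on chromosome 19, and its exon of 66 bp was in 1 of 71 counts after shPTBP1 and 1 of 68 after shSCR. ACTN4-201 took 90.1% and 85.3% of its counts.

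MYL6 had the most counts of the 9 genes, 2121 to 2429 per library after shPTBP1 and 2403 to 2792 after shSCR, so its shares are the most precise. Its exon of 45 bp before the last exon decides the last residues of the light chain: with the exon the last 26 coding bases are replaced, and the coding length stays at 453. It lies on chromosome 12 and is printed because it rests on the most counts among the known alternative exons.
MYL6 exon of 45 bp, chr12:56160626-56160670, plus strand: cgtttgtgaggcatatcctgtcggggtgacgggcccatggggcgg
The share with this exon was 10.1% ± 0.80 after shPTBP1 and 10.2% ± 0.34 after shSCR (SD, n = 4), from 948 of 9358 and 1062 of 10454 counts. The groups overlapped, the difference of the means had an SE of 0.437 points, and the log2 odds ratio was -0.004 with an SE of 0.15. The 100 bases before this exon held 4 matches to TCTT, and 3.69% of all windows held as many. MYL6-211, which lacks an exon of 144 bp in its coding region, had 8.68%, 9.17%, 8.97% and 8.59% of the counts after shPTBP1 and 7.88%, 7.16%, 7.99% and 8.50% after shSCR. All shPTBP1 libraries were above all shSCR libraries, by 0.973 points on average with an SE of 0.31, and the isoform was not called (unadjusted p = 0.178, diffSpliceDGE of edgeR). MYL6-207, the main isoform, had 78.4% ± 1.11 and 79.3% ± 0.43. MYL6B, a relative from a separate gene, had 164 to 203 counts per library.

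Vinculin gains an exon of 204 bp in muscle, which makes metavinculin. This exon was in 1 of 201 counts after shPTBP1 and in 1 of 235 after shSCR, with exact 95% intervals up to 2.74% and 2.35%. VCL-202, the form without it, took 76.5% ± 10.8 and 78.0% ± 1.57, and VCL-206, which starts upstream and is annotated without a coding region, took 23.0% ± 10.5 and 21.6% ± 1.89. The wide spread after shPTBP1 came from shares of VCL-206 between 8.70% (replicate 2) and 33.3% (replicate 4). FLNA, the main filamin of most cells, had 1 count in the 8 libraries together, in shPTBP1 replicate 3, and this count lacked its short coding exon of 24 bp, so the exon could not be measured. Given the count of SPI1, this does not show that FLNA RNA was absent. PLEC, the gene of a large linker of the cytoskeleton, also had 1 count, and was named because of that value.

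At the level of the whole gene 6 of the 9 genes passed the filter on low counts (TPM3, TPM4, ACTN1, ACTN4, MYL6 and VCL), and edgeR's quasi-likelihood test called 0 of them at an adjusted p under 0.05, where it called 5.54% of all 7597 genes tested. DESeq2 also called 0 of the 9, with 314 genes called over all. At an unadjusted p under 0.05 there were 3 by edgeR (background 19.2%) and 2 by DESeq2. The share of all genes under that limit was not computed for DESeq2, so its 2 cannot be set against a background. The log2 fold change was negative for 5 and positive for 1, with a median of -0.17 against -2.4e-05 over all genes tested. Fewer cells of a kind and less RNA per cell cannot be told apart in these bulk libraries.

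ACTN1 was at 80.6, 70.5, 85.2 and 84.7 normalized CPM in shPTBP1 replicates 1 to 4 and at 98.3, 94.3, 98.1 and 110 in the shSCR replicates. It was the 1 tested gene of the 9 whose groups did not overlap, which held for 12.7% of all genes tested. Its log2 fold change was -0.32 (SE 0.09, adjusted p = 0.0632 by edgeR). The exact permutation test gave p = 0.0286, which follows from the lack of overlap. It was called at -0.34 (adjusted p = 0.0349) among genes with a mean of at least 50 counts, and at -0.36 (adjusted p = 0.0422) without TMM scaling. TPM4 was at 124, 134, 131 and 151 normalized CPM after shPTBP1 and at 140, 213, 156 and 176 after shSCR. Replicate 4 of shPTBP1 lay above replicate 1 of shSCR, so the groups overlapped, and the log2 fold change was -0.34 (SE 0.12, adjusted p = 0.111). Without shSCR replicate 1 it was -0.43 and called (adjusted p = 0.048), and without shSCR replicate 2 it was -0.22 (adjusted p = 0.257, all by edgeR).

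TPM3 as a gene was at 212, 200, 194 and 178 normalized CPM after shPTBP1 and at 172, 179, 168 and 172 after shSCR, with overlap by 1 library of each group. Its log2 fold change was 0.18 (SE 0.07, adjusted p = 0.182 by edgeR), so the isoform change occurred without a called change of the gene. MYL6 was at 1500 ± 118.4 and 1656 ± 136 normalized CPM (log2 fold change -0.14, SE 0.07), VCL at 32.2 ± 5.85 and 37.0 ± 5.55 (-0.20, SE 0.16), and ACTN4 at 11.8 ± 1.79 and 11.96 ± 3.62 (-0.02, SE 0.26). In all 3 the groups overlapped, with adjusted p values of 0.301, 0.547 and 0.983 by edgeR. Single libraries moved these small values: that of MYL6 was -0.09 without shPTBP1 replicate 1 or without shSCR replicate 3, and that of VCL was -0.33 without shPTBP1 replicate 3 and -0.12 without shPTBP1 replicate 4.

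**Figure D3:**
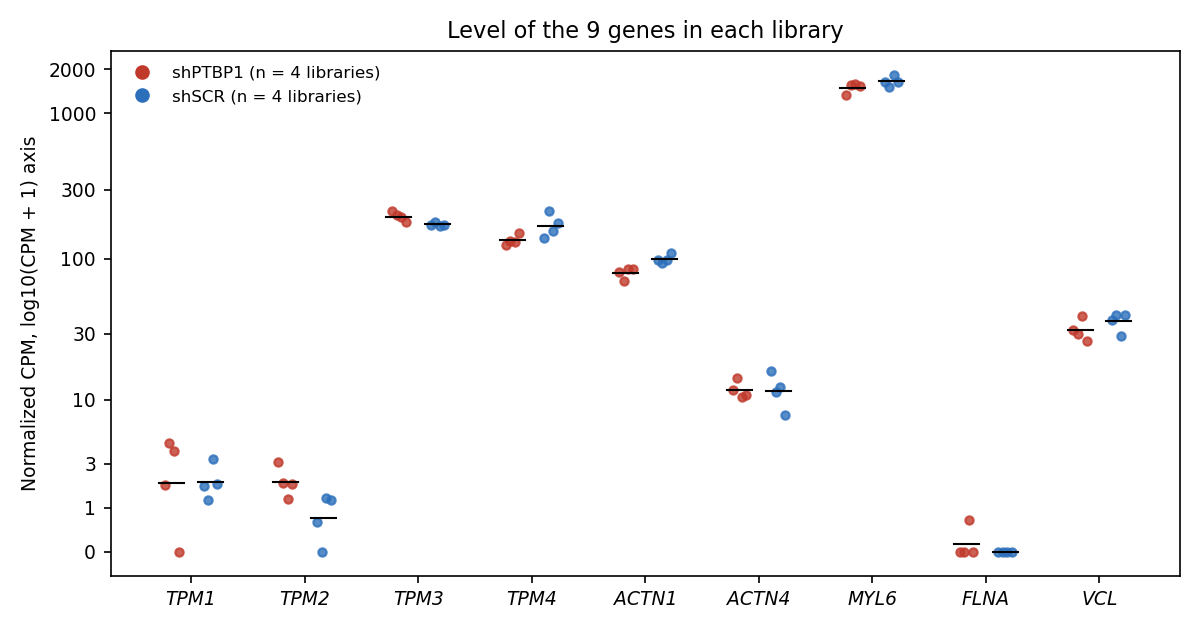
Normalized CPM of the 9 genes in each library, on a log10(CPM + 1) axis, with a point for each library (red shPTBP1, blue shSCR) and black bars at the mean of log10(CPM + 1). The groups overlap for each gene tested except ACTN1 (70.5 to 85.2 against 94.3 to 110).

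**Figure D4:**
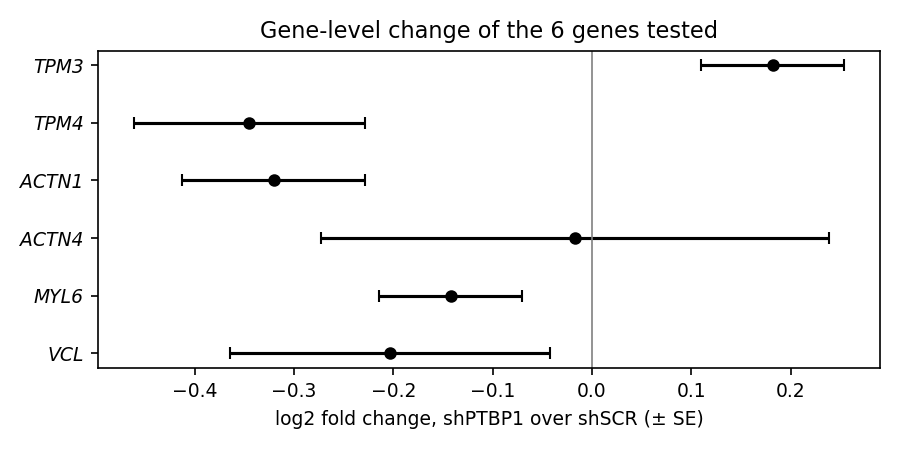
Log2 fold change of shPTBP1 over shSCR with its SE for the 6 genes that edgeR could test. The values run from -0.34 for TPM4 to 0.18 for TPM3, and none of the 6 was called.

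Called genes were also counted over a wider set of contractile and actin-binding genes. Of 39 genes on a list of myosins, their light chains and regulators, calponins, tropomodulins, filamins, spectrins and other actin-binding proteins, 22 were tested, and edgeR called 0 higher and 2 lower, where it called 2.36% and 3.19% of all genes in those directions. The median log2 fold change of the 22 was -0.11. MYL12A, a regulatory light chain of non-muscle myosin, fell from 2013 ± 21.3 to 1724 ± 66.4 normalized CPM, a log2 fold change of -0.22 (SE 0.05, adjusted p = 0.0192 by edgeR). Its call held in 13 of 15 alternatives.

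Of 32 genes of focal adhesions, the sites where vinculin and ACTN1 work, 18 were tested, and edgeR called 1 higher and 2 lower, against the 2.36% and 3.19% of all genes. Their median log2 fold change was -0.11. PTK2B, an adhesion kinase of blood cells, rose from 50.4 ± 5.74 to 78.9 ± 5.60 normalized CPM (log2 fold change 0.65, SE 0.11, adjusted p = 0.00415 by edgeR), and was called in all 15 alternatives. TLN1, which links integrins to actin and recruits vinculin, fell from 66.5 ± 8.89 to 44.99 ± 4.23 (log2 fold change -0.57, SE 0.12, adjusted p = 0.0189 by edgeR), and was called in 13 of 15. ITGB2, the beta chain of the leukocyte integrins, fell from 161 ± 29.7 to 97.3 ± 24.8 (log2 fold change -0.73, SE 0.16, adjusted p = 0.0193 by edgeR), and was called in 10 of 15, including 3 of the 8 in which a library was left out.

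The 3 genes whose levels over the 8 libraries were most like those of ACTN1 were ZNF224, ENSA and DHRS3, with a root mean square difference of centered log2 CPM of 0.0728, 0.0775 and 0.0806, where ACTN1 itself varied by 0.186. Among them ENSA and DHRS3 were called lower (adjusted p = 0.0366 and 0.0456 by edgeR). The likeness was taken over both groups, so genes picked by it share the lower level of ACTN1 after shPTBP1. These calls are therefore not a separate result. The points share 8 libraries, and the likeness is a description.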

How the data were processed

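The authors prepared nanopore cDNA libraries from total RNA, aligned the reads to hg38 with minimap2, kept those above a mapping quality of 50, and deposited whole-number counts per transcript from StringTie. Versions and annotation are not given in the sources used here. A second deposited table, named TPM, holds CPM values, each equal to the count per 1000000 counts of its library, and was used only through that scale. Transcripts were joined by Ensembl identifier without version to GENCODE version 44, which held 252562 of 254070 (1508 others, 0.0876% to 0.115% of counts, were left out of gene sums).

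Gene sums were tested with edgeR 4.0.16 (TMM, filterByExpr, quasi-likelihood test), isoforms with its diffSpliceDGE, and splice events (an internal exon against transcripts whose intron holds it, or a start or an end against all others of the gene) with edgeR on the counts of both forms, with a term for each library, at a mean of at least 10 counts per library over both forms and 1 in each. Adjusted p values are by Benjamini-Hochberg over all features of a test. Single values were compared by two-sided exact permutation tests. Shares of summed counts have exact Clopper-Pearson intervals, and a count of 0 was read against 3 counts. Intervals and floors cover counting error only, since amplified cDNA molecules are not independent. Exons 6a and 6b were named by their order in the gene. The scripts were tested on simulated counts.

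The 9 genes and the lists were chosen with earlier results of these data known. Named are the 9 genes, their transcripts with a mean share of at least 5% in a group, the known alternative exons, events whose less used form reached 2%, called genes of the lists, PTBP1 and PTBP2, and the 3 genes most like the gene with the smallest p. TPM3-205, TPM3-210, TPM4-226 and PLEC were added after their values were seen. One called gene of the lists is not reported here. The labels number the biological replicates, but same-numbered libraries did not deviate together (r from -0.0328 to 0.00889), so the number was not treated as pairing. Alternatives were DESeq2 1.42.0, limma 3.58.1 (voom, diffSplice, trend), other scalings, filters and share limits, coding transcripts alone, the replicate number as a block, and leaving out each library. Computations used R 4.3.3 and Python 3.11.15.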

Additional observations from a re-analysis of the deposited data

Results flagged for a closer look

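Of 58 groups of 4 libraries tested, 3 held a library far from the other 3, where chance gives about 1 in 20. The share of TPM3-206 was 25% in shPTBP1 replicate 1, while the other 3 lay between 21.2% and 21.8%. The share of an exon of 39 bp of MYL6 was 0% in shPTBP1 replicate 1 and 0.124% to 0.125% in the others, on a few counts per library. The share of an exon of 63 bp of TPM3 was 98.8% in shSCR replicate 4 and 99.6% in the others.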

How the results depend on the processing

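Of the 9 genes, 0 were called under 12 of 15 alternatives and 1 in the 3 others: ACTN1 among genes with a mean of at least 50 counts (-0.34) and without TMM (-0.36), and TPM4 without shSCR replicate 1 (-0.43). Leaving out 1 library moved the calls over all genes to between 184 and 358, those over isoforms to between 39 and 55, those over events to between 14 and 24, the called isoforms of the 9 genes to between 0 and 1, and the called genes among the 9 to between 0 and 1. The change of TPM3-206 then ran from 9.31 to 10.8 points. With a limit of 20 points in place of 10, 28 isoforms were called, of which 0 were of the 9 genes, and TPM3-206 at 10.2 points was no longer called. limma's diffSplice called 154 isoforms. With the replicate block 18 events were called, and no call of the 9 genes changed. The change of ACTN4 near 0 turned sign with limma-voom (0.021) and the replicate block (0.000377), and ran from -0.18 to 0.18 when a library was left out. That of the exon of 45 bp of MYL6 ran from -0.32 to 0.28 points in the same way, being 0.129, 0.285 and 0.159 without shPTBP1 replicate 3, shPTBP1 replicate 4 and shSCR replicate 1. The cause of these moves was not tested. The other directions were kept for TPM3, TPM4, ACTN1, MYL6 and VCL and for exons 6a, 6b and that of 79 bp of TPM3 and the exon of 66 bp of ACTN1 under the 15 alternatives run for each. The median over all genes was -2.4e-05 with TMM, -0.04 without it and 0.003 with DESeq2's size factors. Depth limits TPM1, TPM2, FLNA and the muscle exons of ACTN4 and VCL.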
